A study of Mus musculus with 4 samples.

Results

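The 8 transcription factor genes of venous and lymphatic endothelial fate described here were measured in 4 RNA-seq libraries of mouse lymphatic endothelial cells. The 8 genes, of 23337 gene symbols in the count tables, were the COUP-TF nuclear receptors Nr2f1 and Nr2f2, the SOXF factors Sox7, Sox17 and Sox18, the basic leucine zipper factor Maf, the T-box factor Tbx1 and the homeobox factor Hhex. They were chosen by name, for their known part in venous and lymphatic fate, and all 8 were found and had counts in every library.

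The 4 groups, each of 1 library, were homozygous mutant cells after culture, wild type cells after culture, homozygous mutant cells before culture and wild type cells before culture. The cells were taken from dorsal and anterior tissue of day 14.5 embryos, with the whole litter of a genotype pooled, so a library is a pool of embryos and not an animal. They were sorted as CD45 negative cells bearing LYVE1 and VECAD (the cadherin encoded by Cdh5). A part of each sort was lysed at once; the remainder was kept for 7 days on OP9 cells, a mouse bone marrow stromal line that supports blood cell formation, with the cytokines SCF, IL3 and FLT3L (100 ng/ml of each), and sorted again for LYVE1 and VECAD, with no CD45 gate stated. The mutants carry a homozygous deletion that the labels do not place. The title of the series speaks of an enhancer bound by GATA2, and in the published study that enhancer belongs to Prox1. The series sets mutant against wild type cells before culture, and again after culture to gauge their blood-forming potential.

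Lymphatic endothelium arises in the embryo from veins. In mouse veins the SOXF factor SOX18 and the COUP-TF factor NR2F2 act on Prox1, which encodes the homeobox factor that sets lymphatic identity, and NR2F2 also holds down Notch signalling and with it the arterial programme. SOX7 and SOX17 bind similar DNA and share tasks with SOX18 in vessels, SOX17 mainly in arteries; TBX1 is needed for lymphatic vessel growth in mice and acts on Flt4, the VEGFC receptor gene; HHEX is needed in liver, blood and vessel development; MAF is a large MAF factor known from lens, cartilage and macrophages and from liver sinusoid endothelium.

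Gene counts totalled 1694669 to 7943587 per library, and 19343 to 22608 genes had a count. The cells were checked against the markers of the sort: Lyve1 stood at 2742 and 3523 CPM in mutant and wild type cells after culture and at 890 and 1072 CPM before it, and Cdh5 at 2285, 2477, 1066 and 1003 CPM in the same order. Prox1 was present in every library, whereas the lymphatic glycoprotein gene Pdpn had 8 and 0 counts in mutant and wild type cells after culture, against 915 and 435 before it. The lymphatic chemokine gene Ccl21b had no count in any library. Pairs that aligned to several places were not counted, so this does not show that Ccl21b was absent. Olfactory and vomeronasal receptor genes, which these cells should not express, gave a background rate per kb of their coding sequence, namely 1.61 counts in mutant and 0.537 in wild type cells after culture, against 8.33 and 6.63 counts before it. Uniquely aligned pairs in no annotated gene made up 74.2% and 66.7% in mutant and wild type cells after culture, against 85.8% and 89.3% before it, and unaligned pairs 56.2% and 67.6% of all pairs after culture, against 34.1% and 21.4% before it. These shares move with culture, and their part in its results was not tested. The receptor gene rate over the exons of a gene gives the background expected in its count. With 1 library per group no comparison of 2 libraries has a replicate check, and intervals below are 95% intervals for counting error only.

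On GRCm38 (GENCODE vM21) the COUP-TF genes lie at chr13:78188973-78199757 (Nr2f1) and chr7:70351944-70366735 (Nr2f2), both on the minus strand. The SOXF genes lie at chr14:63943673-63950732 (Sox7, plus strand), chr1:4490931-4497354 (Sox17, minus strand) and chr2:181669836-181671640 (Sox18, minus strand). Maf lies at chr8:115682942-115707794 and Tbx1 at chr16:18580979-18590671, both on the minus strand, and Hhex at chr19:37434810-37440731 on the plus strand.

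The promoters of 3 factors are shown because under TMM scaling they had the largest culture folds, Nr2f2 and Hhex upward and Tbx1 downward; on a scale of endothelial genes, given below, Nr2f2 and Hhex moved little. RefSeq windows on GRCm38.p6 were at hand for 4 of the 8 genes; the bases are those before the start site, on the strand of the gene and 5′ to 3′, and for Hhex the window stops where the GENCODE gene begins. They lie at chr7:70366747-70366996 (minus strand, Nr2f2), chr19:37434591-37434809 (plus strand, Hhex) and chr16:18590672-18590921 (minus strand, the outer of the 2 Tbx1 starts). Capitals would mark a motif match, and these windows hold none.
Nr2f2: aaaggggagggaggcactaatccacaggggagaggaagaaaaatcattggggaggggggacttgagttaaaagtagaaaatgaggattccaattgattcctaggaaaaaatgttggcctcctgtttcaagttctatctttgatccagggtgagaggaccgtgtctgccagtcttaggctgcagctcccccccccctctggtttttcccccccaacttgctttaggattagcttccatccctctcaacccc
Hhex: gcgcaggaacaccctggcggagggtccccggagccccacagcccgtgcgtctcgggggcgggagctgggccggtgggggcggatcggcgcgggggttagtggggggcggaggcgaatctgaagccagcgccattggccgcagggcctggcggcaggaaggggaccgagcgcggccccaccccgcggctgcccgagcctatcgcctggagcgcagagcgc
Tbx1: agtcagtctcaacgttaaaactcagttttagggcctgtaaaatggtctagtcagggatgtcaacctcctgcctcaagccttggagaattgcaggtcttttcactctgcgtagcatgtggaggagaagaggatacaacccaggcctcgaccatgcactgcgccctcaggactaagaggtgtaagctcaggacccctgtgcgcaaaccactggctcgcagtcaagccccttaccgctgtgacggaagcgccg
Motifs were searched on both strands. GATA factors were represented by AGATAA or by TGATAA in the window. For SOX factors the letters were AACAAAG or the shorter AACAAT in place of them. The COUP-TF core was AGGTCA, the usual nuclear receptor site. T-box factors were represented by the motif AGGTGTGA, and MAF factors by TGCTGAC or, as another form, TGCTGAG, and none of these strings contains another. Of 32851 promoter windows of 250 bases, 16.6% held a GATA match, 13.8% a SOX match, 14.0% a COUP-TF match, 1.12% a T-box match and 9.72% a MAF match. Among the 6 windows of Nr2f1, Nr2f2, Tbx1 and Hhex the only match was AACAAAG in the window of the inner Nr2f1 start. No match says only that these letters are not in this window. The Hhex window had 76.0% G and C, and the Tbx1 window 54.4%, against a median of 52.4% over all windows.

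Per kb of exon, Sox18 and Nr2f2 were the most abundant of the 8 factors in every library, and Nr2f1 and Sox17 were among the 3 least abundant. Levels here are CPM on library sizes scaled by edgeR's TMM method, which lines up the bulk of genes between libraries (TMM-scaled CPM), divided by exon length for comparisons between genes. After culture Sox18 stood at 114 CPM per kb in mutant cells and 123 in wild type cells, and Nr2f2 at 109 and 119. Before culture the levels were 43.8 and 34.8 CPM per kb for Sox18 and 34.4 and 30.7 for Nr2f2. The intervals of Sox18 and Nr2f2 overlapped in 3 of the 4 libraries; in mutant cells before culture Sox18 was higher. Sox7, at 45.4 and 56.2 CPM per kb after culture and 32.8 and 28.1 before, followed in all 4 libraries, its interval overlapping that of Nr2f2 before culture. Tbx1 came next before culture, at 30.1 and 25.6 CPM per kb, but was among the 3 lowest after it, at 4.68 and 6.41, where its interval overlapped those of its neighbours in the order.

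**Figure D1:**
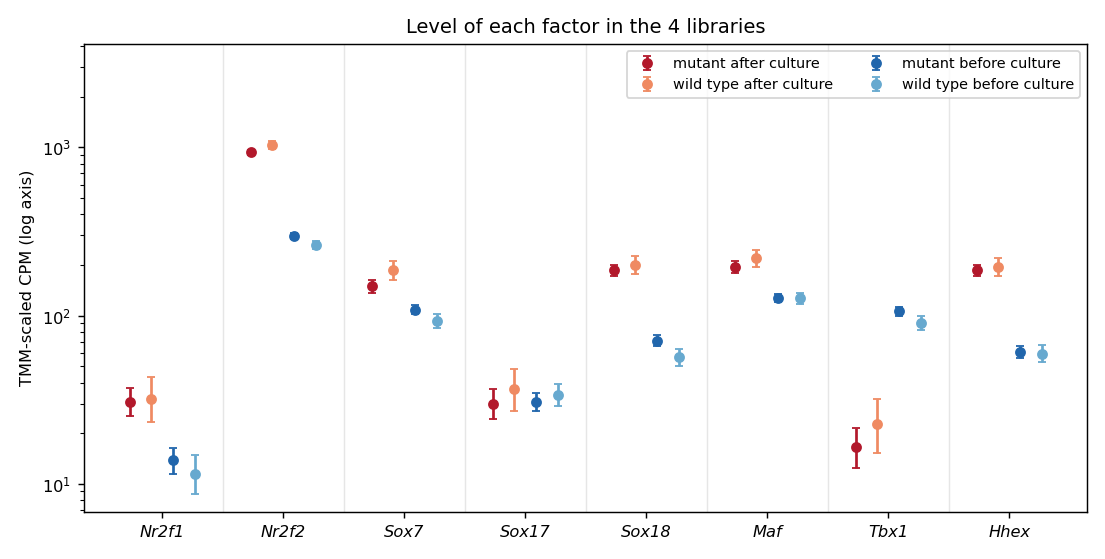
TMM-scaled CPM (log axis) of each factor in each library, with exact Poisson 95% intervals for counting error; colours mark the 4 libraries. Nr2f2, Sox18 and Hhex lie higher after culture in both genotypes, Tbx1 lies lower, and the 4 Sox17 intervals overlap.

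Cultured and uncultured cells of the same sorts were then compared. Under TMM scaling 6 of the 8 were higher after culture and Tbx1 was lower, in both genotypes, and Sox17 was not past the test. A model with 1 term for genotype and 1 for culture (edgeR's quasi-likelihood test, Benjamini-Hochberg adjustment over 18378 genes) called 7 of the 8 at an adjusted p under 0.05. The same test called 42.1% of all genes, 25.0% as higher and 17.2% as lower. The median log2 fold was 1.01 over the 8 factors and -0.10 over all genes tested. This fit has 1 residual degree of freedom, and its error is how far mutant and wild type cells differ in their response. In edgeR's estimate no gene had a spread of its own, and each took a value shared across genes. Both libraries of a genotype come from 1 sort, so the genotype term also pairs them in the test of culture, and the p-values measure the spread between these libraries only. In bulk RNA, fewer cells of a type and less RNA per cell cannot be told apart.

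The direction of these changes is relative to the scale. Under TMM scaling 19 of 20 pan-endothelial genes rose too (Eng, a TGF-beta co-receptor, 12.6-fold; Pecam1 2.57-fold; Cdh5 2.30-fold), and scaling by their summed counts moved all log2 folds of culture down by 1.51 in mutant cells and 1.73 in wild type cells. On that endothelial scale none of the 8 factors rose past the test and 4 fell, namely Tbx1, Sox17, Maf and Sox7. Of 19665 genes tested on that scale, 17432 fell and 359 rose, with a median log2 fold of -1.81. Sox7, Maf and Sox17 lay above that median and Tbx1 below it. Scaling by total gene counts moved the folds down by 0.45 and 0.62 and left 5 calls, 4 of them higher. Over all genes it called 8369 of 18531, 1952 of them higher. Of the calls over all genes, 59.2% were higher under TMM, 23.3% under total counts and 2.02% on the endothelial scale. Each factor is therefore given on both the TMM and the endothelial scale.

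**Figure D2:**
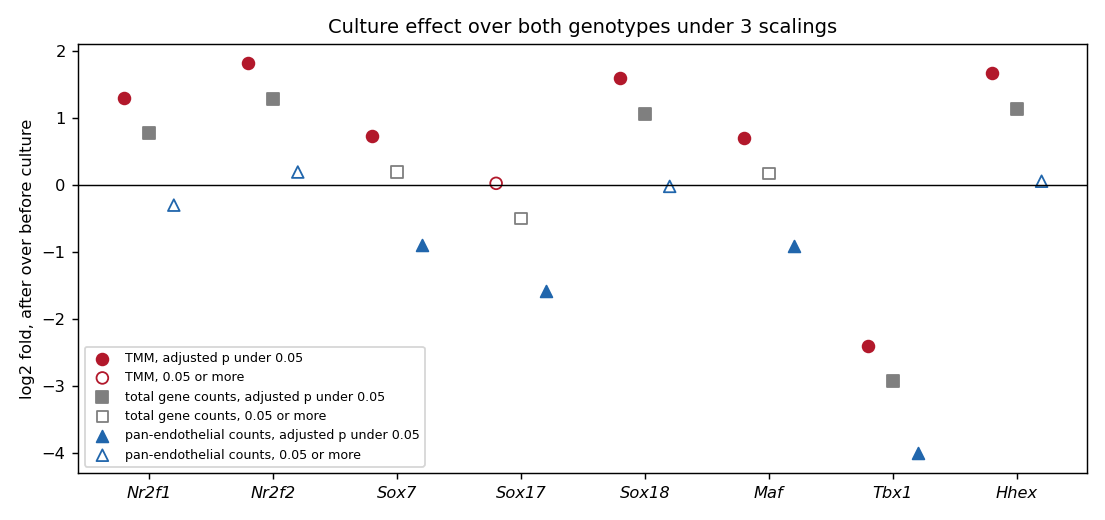
Log2 fold of culture over both genotypes for each factor under 3 scalings of the libraries; filled symbols passed edgeR's test at an adjusted p of 0.05 and open symbols did not. Tbx1 is below 0 under all 3, Nr2f2 and Hhex are above 0 under all 3 but near 0 on the endothelial scale, and Nr2f1, Sox7, Sox17, Sox18 and Maf change sign on the endothelial scale.

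Nr2f2, which sets venous identity, had 938 CPM (905 to 971) in mutant and 1029 CPM (976 to 1084) in wild type cells after culture, against 296 CPM (285 to 308) in mutant and 265 CPM (250 to 279) in wild type cells before it. Both cultured libraries were far above both uncultured ones. The fit gave a 3.50-fold rise (edgeR adjusted p = 1.28e-18). The single comparisons gave 3.16-fold (3.0 to 3.33) in mutant and 3.89-fold (3.61 to 4.198) in wild type cells. Relative to 1000 pan-endothelial counts, Nr2f2 held 60.6 and 61.1 counts in mutant and wild type cells after culture and 54.4 and 52.1 before it, a log2 fold of 0.19 that did not pass on that scale (edgeR adjusted p = 0.147). The opposite-strand gene B130024G19Rik, which overlaps an exon of Nr2f2, had 24 to 92 counts per library, beside 1318 to 3136 counts of Nr2f2. These counts do not show how many reads fell on both genes, and the effect of the overlap was not tested.

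Hhex, a homeobox factor of liver, blood and vessels, had 186 CPM (171 to 201) in mutant and 196 CPM (173 to 221) in wild type cells after culture, against 60.6 CPM (55.6 to 65.8) in mutant and 59.4 CPM (52.8 to 66.6) in wild type cells before it. The genotypes overlapped within each culture state and the culture states did not overlap. Its rise was 3.17-fold (edgeR adjusted p = 5.21e-17). Per 1000 pan-endothelial counts its level was 12.0 and 11.6 after culture and 11.1 and 11.7 before it in mutant and wild type cells, intervals that all overlap.

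Sox18, the SOXF factor that acts on Prox1, had 185 CPM (171 to 201) in mutant and 200 CPM (177 to 225) in wild type cells after culture, against 71.0 CPM (65.6 to 76.6) in mutant and 56.4 CPM (49.99 to 63.4) in wild type cells before it. Its rise was 3.01-fold (edgeR adjusted p = 1.18e-15), with 2.61-fold (2.34 to 2.92) in mutant and 3.55-fold (2.99 to 4.204) in wild type cells. Per 1000 pan-endothelial counts Sox18 held 12.0 and 11.9 counts after culture and 13.0 and 11.1 before it in mutant and wild type cells. On that scale the fitted log2 fold was -0.02 (edgeR adjusted p = 0.883).

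Nr2f1, the less abundant COUP-TF gene, had 30.8 CPM (25.1 to 37.4) in mutant and 32.0 CPM (23.3 to 43.0) in wild type cells after culture, against 13.8 CPM (11.5 to 16.4) in mutant and 11.4 CPM (8.66 to 14.8) in wild type cells before it. It rose 2.46-fold (edgeR adjusted p = 6.71e-05). Its counts were low, 103 and 44 after culture and 127 and 57 before it, and the receptor gene background would supply 33.4% and 59.3% of the counts before culture in mutant and wild type cells. With background subtracted the folds of culture were 3.09 in mutant and 6.44 in wild type cells. An antisense gene, A830082K12Rik, overlaps its exons and had 42, 12, 67 and 30 counts in mutant and wild type cells after and then before culture, and the strand setting of the counting is not given in the sources used here, so the level of Nr2f1 is uncertain. Per 1000 pan-endothelial counts Nr2f1 held 1.99 and 1.90 counts in mutant and wild type cells after culture and 2.53 and 2.25 before it. On that scale its log2 fold was -0.30 and did not pass (edgeR adjusted p = 0.364).

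Sox7 and Maf rose less. Sox7 had 150 CPM (137 to 164) in mutant and 186 CPM (163 to 210) in wild type cells after culture, against 108 CPM (101 to 115) in mutant and 92.7 CPM (84.5 to 102) in wild type cells before it, a fitted rise of 1.65-fold (edgeR adjusted p = 0.000539). Maf had 195 CPM (180 to 211) in mutant and 219 CPM (195 to 245) in wild type cells after culture, against 127 CPM in both mutant (120 to 135) and wild type (117 to 137) cells before it, a rise of 1.62-fold (edgeR adjusted p = 0.00074). In both genes the cultured libraries lay above the uncultured ones without overlap. On the endothelial scale both fell, Sox7 by 0.89 and Maf by 0.91 on the log2 scale (edgeR adjusted p = 6.36e-09 and 9.08e-10). Both falls were smaller than the median log2 fold of all genes there, -1.81. On the scale of total counts neither passed the test, with adjusted p of 0.265 for Sox7 and 0.303 for Maf.

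Sox17, the SOXF factor of arteries, had 29.9 CPM (24.3 to 36.4) in mutant and 36.4 CPM (27.0 to 48.0) in wild type cells after culture, against 30.7 CPM (27.2 to 34.5) in mutant and 33.9 CPM (29.0 to 39.4) in wild type cells before it. The 4 intervals overlapped, and the fitted log2 fold of 0.02 did not pass (edgeR adjusted p = 0.941). Per 1000 pan-endothelial counts Sox17 stood at 1.93 and 2.16 after culture and 5.64 and 6.68 before it in mutant and wild type cells. The background would supply 7.68% and 5.12% of its counts after culture and 14.0% and 18.7% before it. On the endothelial scale it fell by 1.58 on the log2 scale (edgeR adjusted p = 1.62e-10), where all genes had a median log2 fold of -1.81.

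Tbx1 fell under TMM, total-count and endothelial scaling. It had 16.4 CPM (12.4 to 21.4) in mutant and 22.6 CPM (15.3 to 32.0) in wild type cells after culture, against 106 CPM (99.3 to 113) in mutant and 90.1 CPM (82.0 to 98.8) in wild type cells before it. Counts were 55 and 31 after culture and 975 and 449 before it. It was 6.43-fold lower (4.90 to 8.60) in mutant cells and 3.995-fold lower (2.77 to 5.95) in wild type cells after culture, and 5.26-fold lower in the fit (edgeR adjusted p = 1.85e-22). Per 1000 pan-endothelial counts it stood at 1.06 and 1.34 after culture and 19.4 and 17.8 before it. Flt4, on which TBX1 acts in mice, was 2.10-fold higher after culture on the TMM scale (edgeR adjusted p = 3.77e-06). Per 1000 pan-endothelial counts, however, Flt4 held 147 and 151 counts in mutant and wild type cells after culture and 219 and 215 before it.

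By the rule for 2 single libraries, a gene was called where its whole interval lay beyond 2-fold and a library held at least 20 counts. That rule called Nr2f2, Sox18 and Hhex as higher and Tbx1 as lower in the culture of mutant cells, and the same 4 in the culture of wild type cells. In mutant cells it called 8.81% of 18807 genes, 5.19% as higher and 3.62% as lower. In wild type cells it called 13.9% of 17154 genes, 8.17% as higher and 5.77% as lower. The 8 factors had a median log2 fold of 0.89 in mutant cells, where all genes had -0.04, and 1.25 in wild type cells, where all genes had 0.05.

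**Figure D3:**
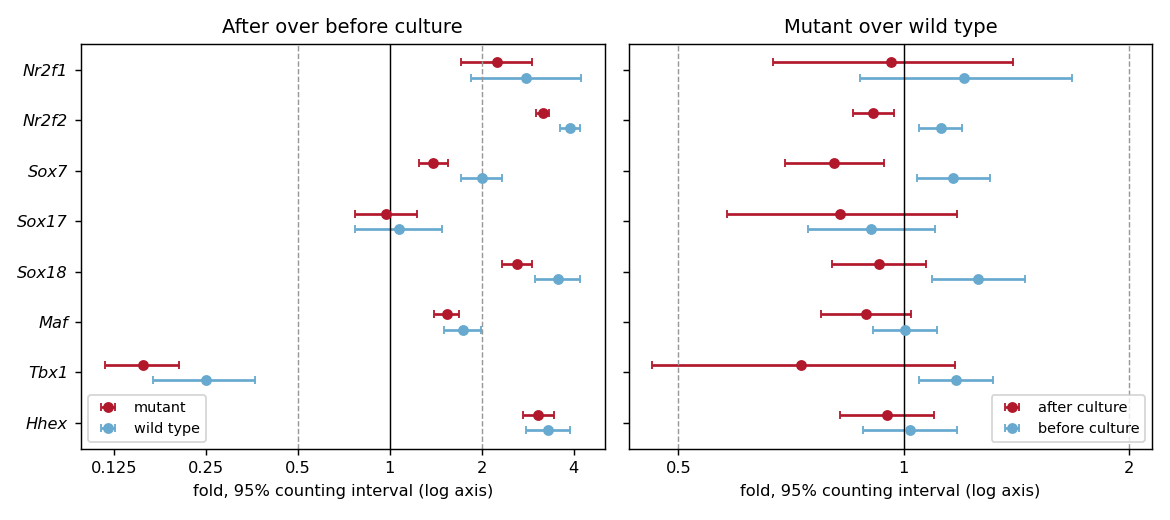
Fold of each factor with its 95% counting interval (log axis), after over before culture in mutant and wild type cells (left) and mutant over wild type after and before culture (right); the solid line marks 1 and dashed lines mark 2-fold. Culture intervals for Nr2f2, Sox18, Hhex and Tbx1 lie wholly beyond 2-fold in both genotypes, and no genotype interval does.

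Ratios between factors within a library do not depend on the scaling. Among the SOXF genes the make-up turned towards Sox18: per kb of exon Sox18 made up 68.9% of SOXF counts in mutant and 65.9% in wild type cells after culture, against 52.8% in mutant and 49.7% in wild type cells before it. Sox17 made up 3.77% and 4.07% after culture and 7.75% and 10.1% before it. The ratio of Sox18 to Sox7 was 1.88 times as high after as before culture in mutant cells (1.62 to 2.20) and 1.77 times in wild type cells (1.41 to 2.22). The ratio of Sox17 to Sox18 was 0.373 times (0.289 to 0.480) and 0.302 times (0.212 to 0.432) that before culture in mutant and wild type cells.

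**Figure D4:**
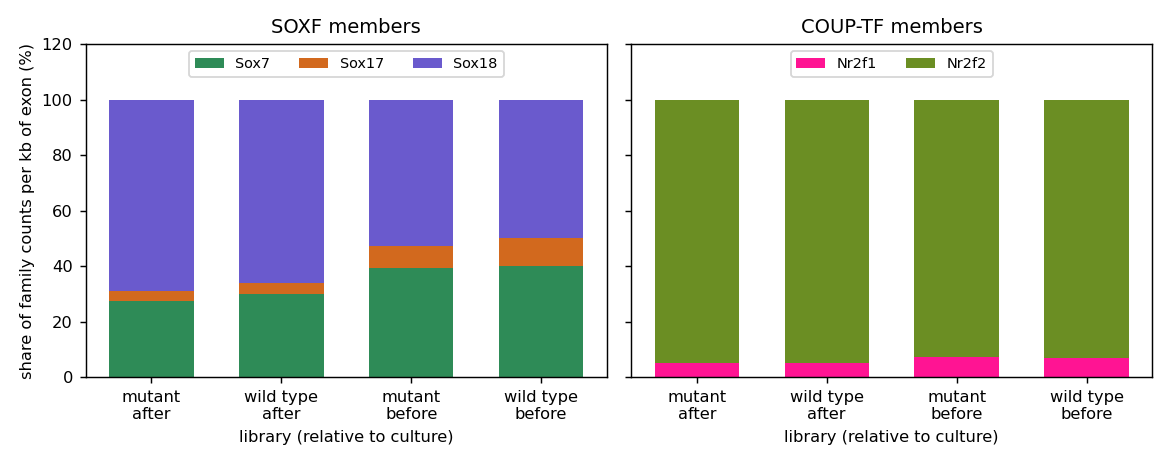
Share of each gene in the counts of its family per kb of exon, in percent, for the SOXF genes (left) and the COUP-TF genes (right) in each library. Sox18 takes 68.9% and 65.9% of SOXF after culture, and Nr2f2 takes 92.7% or more of COUP-TF in every library.

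Nr2f2 made up 94.7% and 94.997% of COUP-TF counts per kb after culture and 92.7% and 93.2% before it in mutant and wild type cells. The ratio of Hhex to Nr2f2 after culture was 0.969 times (0.855 to 1.10) that before it in mutant and 0.846 times (0.706 to 1.01) in wild type cells, intervals that hold 1. The ratio of Maf to Nr2f2 was 0.484 times (0.435 to 0.540) and 0.444 times (0.380 to 0.520) as high, and that of Tbx1 to Nr2f2 0.0491 times (0.0373 to 0.0648) and 0.0643 times (0.0443 to 0.0933). Against Prox1, which both are known to act on, Nr2f2 and Sox18 shifted far. Per kb, Nr2f2 counts were 6.65 and 4.85 times those of Prox1 in mutant and wild type cells after culture, against 0.593 and 0.508 times before it. Sox18 counts were 7.00 and 5.01 times those of Prox1 after culture, against 0.756 and 0.576 times before it.

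Prox1 itself had 137 CPM in mutant and 207 CPM in wild type cells after culture, against 487 CPM in mutant and 507 CPM in wild type cells before it. It was 2.96-fold lower after culture in the fit (edgeR adjusted p = 1.18e-14). Per 1000 pan-endothelial counts Prox1 held 8.87 and 12.3 counts in mutant and wild type cells after culture, against 89.3 and 99.9 before it. Gata2, which encodes the factor named in the series title, had 61.004 and 67.7 CPM after culture and 93.8 and 76.1 CPM before it. Its log2 fold of -0.42 under TMM scaling did not pass (edgeR adjusted p = 0.0783). Gata2 held 3.94 and 4.02 counts per 1000 pan-endothelial counts in mutant and wild type cells after culture, against 17.2 and 14.99 before it. Its intervals before and after culture did not overlap on that scale, where all genes had a median log2 fold of -1.81.

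**Figure D5:**
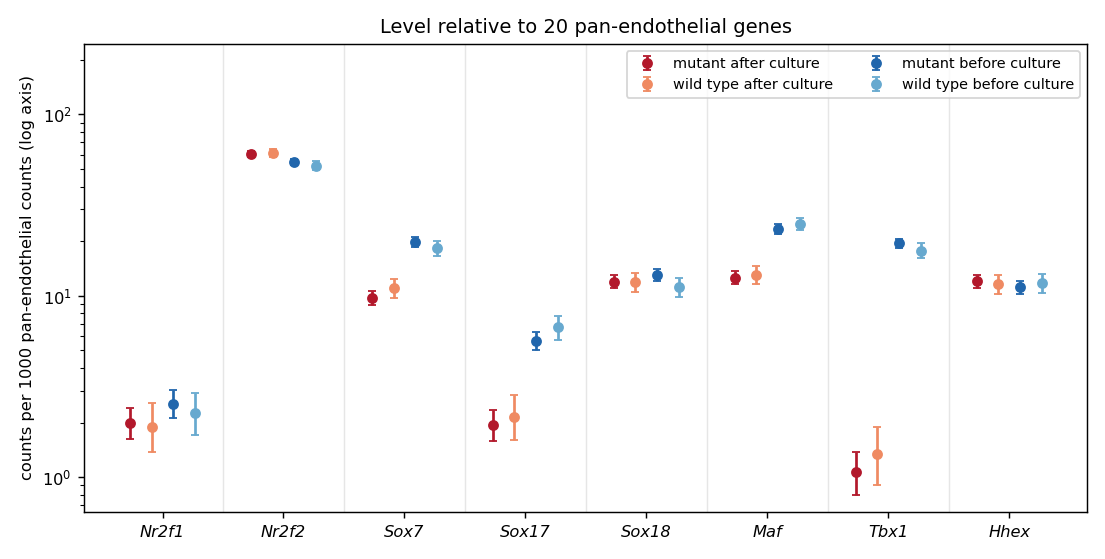
Counts of each factor per 1000 counts of 20 pan-endothelial genes (log axis), with exact Poisson 95% intervals of the factor's count, in the 4 libraries. Sox18 and Hhex lie at 11.1 to 13.0 in every library, whereas Sox7, Sox17, Maf and Tbx1 lie lower after culture in both genotypes.

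Mutant and wild type cells were set against each other to ask what the deletion changed. None of the 8 factors was called in either culture state, by the 2-fold rule or by the fit over both states. The 2-fold rule called 0.317% of 12309 genes after culture and 0.0634% of 18934 genes before it. The edgeR test of genotype called 6 of 18378 genes (0.0326%), with 309 at an unadjusted p under 0.05, and DESeq2 called 1. The fitted log2 folds of the 8 factors lay between -0.20 (Sox17) and 0.11 (Nr2f1), each with an edgeR adjusted p of 0.99998, and the lowest unadjusted p among them was 0.399 (Sox17).

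Smaller shifts, all within 1.5-fold on the TMM scale, lay outside the counting error of the 2 libraries for some factors. Before culture the mutant to wild type fold was 1.12 (1.05 to 1.20) for Nr2f2, 1.17 (1.04 to 1.30) for Sox7, 1.26 (1.09 to 1.45) for Sox18 and 1.17 (1.05 to 1.32) for Tbx1, so 4 of the 8 intervals lay above 1. Among all genes 26.1% had an interval without 1. After culture Nr2f2 stood at 0.911 (0.855 to 0.971) and Sox7 at 0.808 (0.693 to 0.943), and the 6 other intervals held 1, whereas 21.8% of all genes had an interval without 1. Maf and Hhex had folds of 0.890 (0.776 to 1.02) and 0.949 (0.821 to 1.10) after culture and 1.0045 (0.911 to 1.11) and 1.02 (0.884 to 1.18) before it. Nr2f1, Sox17 and Tbx1 had folds of 0.962 (0.670 to 1.40), 0.822 (0.580 to 1.18) and 0.729 (0.461 to 1.17) after culture. With background subtracted the fold of Nr2f1 before culture was 1.97 in place of 1.21, and the 2-fold rule did not call it. That value rests on few counts. The background would supply 42.4 of 127 counts in mutant and 33.8 of 57 in wild type cells. On the endothelial scale Nr2f2 had 60.6 and 61.1 counts per 1000 in mutant and wild type cells after culture and 54.4 and 52.1 before it, intervals that overlap between genotypes in each state. The mutant to wild type folds before culture were smaller on that scale. They were 1.04 for Nr2f2, 1.09 for Sox7, 1.17 for Sox18 and 1.09 for Tbx1.

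Under TMM scaling the genotype fold after culture was lower than before culture for each of the 8 factors, with a median ratio of 0.806, against 0.932 over 12272 genes. The ratio was 0.693 (0.575 to 0.835) for Sox7, 0.736 (0.603 to 0.899) for Sox18, 0.813 (0.742 to 0.890) for Nr2f2 and 0.621 (0.394 to 0.978) for Tbx1, intervals that did not hold 1. Of all genes, 29.4% had such an interval. On the endothelial scale the interval of Sox7 alone was without 1, at 0.810 (0.672 to 0.976). There Sox17 (1.06), Maf (1.04) and Hhex (1.09) had ratios above 1, as they did under total counts (1.03, 1.0015 and 1.05).

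Other regulators of the same fate were taken from lists chosen by name. Their counts stand beside the 25.0% of all genes that the culture test called as higher and the 17.2% called as lower. Of 10 further factors of venous and lymphatic fate, 2 rose and 3 fell in the edgeR test, with a median log2 fold of -0.07. Zeb2, a zinc finger repressor, rose 3.72-fold (edgeR adjusted p = 6.46e-22), while Nfatc1, a factor of lymphatic valves, with 347 and 509 CPM after culture and 314 and 312 CPM before it, and Klf2, a flow-responsive factor, did not pass. Of 19 general endothelial transcription factors tested, 15 rose and 2 fell, with a median of 0.94. Epas1, which encodes the hypoxia factor HIF-2alpha, rose 12.9-fold (edgeR adjusted p = 1.81e-62), and Klf4, a zinc finger factor, fell 8.92-fold (edgeR adjusted p = 3.45e-48). Among 22 relatives of the 8 factors, 7 rose and 6 fell, with Hlx, a homeobox gene, 6.85-fold higher and Maff, a small MAF gene, 2.79-fold lower. No member of these lists was called for genotype.

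Of 14 genes reported to act downstream of the 8 factors, 10 rose and 4 fell after culture, with a median log2 fold of 1.17. The pan-endothelial list, which shares Cdh5, Robo4 and Cldn5 with it, had a median of 1.67. Notch1, a Notch receptor, rose 2.36-fold, and the VEGFC co-receptor gene Nrp2, which NR2F2 acts on, was 1.90-fold lower (edgeR adjusted p = 4.92e-05). Of 13 lymphatic identity genes tested, 4 rose and 8 fell, with Mmrn1, an extracellular protein of lymphatic vessels, 6.88-fold lower. Of 11 venous and capillary genes 7 rose and 2 fell, with Ephb4, the venous ephrin receptor, 2.65-fold higher. Of 17 arterial and Notch genes 6 rose and 9 fell, with Hes1, a Notch target, lower and Nrp1, a semaphorin and VEGF co-receptor, higher. On the endothelial scale all these log2 folds are lower by the shift given above.

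Genes of other cell types also moved with culture, and their part in the levels of the 8 factors was not tested. COUP-TF genes, Maf and Tbx1 are also active in mesenchyme, cartilage, macrophages and muscle precursors. Stromal genes summed to 1590 and 1728 CPM in mutant and wild type cells after culture and 6440 and 4284 CPM before it, with 11 of 14 lower and none higher in the edgeR test. Cartilage genes summed to 443 and 492 CPM after culture and 1357 and 912 CPM before it, with 5 of 8 lower and 1 higher. Skeletal muscle genes summed to 190 and 143 CPM after culture and 543 and 478 CPM before it, with 9 of 11 lower. The muscle factor gene Myog had 2 and 0 counts after culture and 138 and 47 before it. Macrophage genes summed to 344 and 263 CPM after culture and 345 and 347 CPM before it, with 2 of 10 lower and none higher. That sum came mostly from Mrc1, which lymphatic endothelium also expresses. The macrophage gene C1qa had 5 and 0 counts after culture and 30 and 14 before it. These counts are low, and its fall did not pass (edgeR adjusted p = 0.1425).

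Pan-leukocyte genes summed to 275 and 252 CPM in mutant and wild type cells after culture and 152 and 144 CPM before it, with 2 of 7 higher and 2 lower. The largest part of that sum was Lcp1, an actin-bundling protein gene, with 182 and 196 CPM after culture and 68.2 and 62.8 CPM before it. Lcp1 and Hcls1 rose, whereas Laptm5 and Ptprc, which encodes CD45, fell, Ptprc having 26 and 6 counts after culture and 118 and 91 before it. Mast cell genes summed to 105 and 177 CPM after culture and 117.7 and 98.5 CPM before it, with none of 5 called. Hepatocyte, neuron and epithelial genes summed to at most 33.5 CPM per list after culture and 75.3 to 92.2 CPM before it, with 4 of 8, 5 of 9 and 5 of 7 lower. Fat cell genes, which OP9 cells can express, summed to 630 and 925 CPM after culture and 91.4 and 101 CPM before it, with 6 of 8 higher. The largest parts of that sum after culture were Fabp4, at 335 and 394 CPM, and Lpl, at 190 and 309 CPM. Adipoq had 12.9 and 54.6 CPM after culture and 5.32 and 5.42 CPM before it. Which cells these counts came from was not tested. Under TMM scaling Nr2f2, Sox18 and Hhex were higher after culture, where stromal, cartilage and muscle genes were lower and fat cell genes higher. None of these factors passed the culture test on the endothelial scale. Tbx1 was lower after culture, as were most tested genes of the stromal, cartilage, muscle, neuron, epithelial and lymphatic identity lists.

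The genes whose levels over the 4 libraries lay nearest to those of each factor were found among 10372 genes, by the root mean square difference of centred log2 levels. With only 4 libraries, many genes lie close. The nearest was Ccdc109a for Nr2f2 (difference 0.0190), Sema4c for Sox18 (0.0187), Acvr1b for Hhex (0.0128), Ulk1 for Sox7 (0.00431), Chmp2b for Maf (0.00720), Fam96a for Sox17 (0.0104) and Itfg3 for Nr2f1 (0.00881). The second nearest to Hhex was Tek, the angiopoietin receptor gene, with 686 and 712 CPM in mutant and wild type cells after culture and 214 and 215 CPM before it. Tbx1 had no neighbour as close: the nearest was Ptgs2, at 0.0682, with 2.69 and 2.91 CPM after culture and 18.6 and 17.7 CPM before it.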

How the data were processed

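RNA was measured in 4 libraries, 1 per combination of genotype and culture state, read in pairs of 75 nt from a stranded low-input kit, as the labels' protocols say. The deposited values are raw counts of read pairs per gene symbol, made by the authors with STAR and HTSeq 0.11.2 on mm10, per the submitters' processing notes, after duplicate removal with sambamba, per the table names. Neither the annotation nor the strand setting is given in the sources used here. Opposite-strand genes that are not among the counted symbols also overlap exons of Sox17 and Maf. The 5 summary classes of HTSeq were left out of totals; gene counts were 7.94% to 10.5% of all read pairs, and 20.0% to 66.5% of pairs lay in no annotated gene.

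Exon lengths and coordinates came from GENCODE vM21 on GRCm38, the assembly of mm10, for 98.0% of symbols, with exons of all isoforms merged. Libraries were scaled with TMM in edgeR 4.0.16 (R 4.3.3), with factors of 0.851, 0.811, 1.16 and 1.25 for mutant and wild type cells after culture and mutant and wild type cells before it. Levels have exact Poisson 95% intervals and folds have Clopper-Pearson 95% intervals. Both cover counting error only, since each group has 1 library. The reads carry no molecular identifiers, so some PCR copies may remain after the duplicate removal. Ratios of folds have log-normal intervals. The additive fit used edgeR's quasi-likelihood test with genes kept by filterByExpr; DESeq2 1.42.0 was an alternative. The 2-fold rule was tried on simulated counts with counting error only, and the model fit on simulated counts with a fixed spread for all genes. Neither simulation gave the genotypes different responses to culture. They therefore do not show how the methods fare on the spread between real samples.

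The 8 genes and the 18 gene lists (204 distinct genes, 201 found) were chosen with earlier results of these data known. Text outside the 8 names up to 4 genes per list with the most counts, Prox1 and Gata2, and the nearest genes in pattern; Pdpn, Ccl21b, Myog, C1qa, Ptprc, Robo4, Cldn5, A830082K12Rik and B130024G19Rik were named after their values were seen. Alternatives were other scalings, background subtraction, a 1.5-fold rule, other count minimums and leaving out each library.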

Additional observations from a re-analysis of the deposited data

Results flagged for a closer look

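Under TMM scaling the genotype folds of Nr2f2 and Sox7 lay on opposite sides of 1 in the 2 culture states, with both intervals clear of 1. Nr2f2 was 0.911 times (0.855 to 0.971) the wild type level in mutant cells after culture and 1.12 times (1.05 to 1.20) before it, a ratio of folds of 0.813. Sox7 was 0.808 times (0.693 to 0.943) the wild type level in mutant cells after culture and 1.17 times (1.04 to 1.30) before it, a ratio of 0.693. The difference was not tested over replicates, since each fold rests on 1 library per genotype. On the endothelial scale the ratio was 0.9504 (0.868 to 1.04) for Nr2f2 and 0.810 (0.672 to 0.976) for Sox7. The genotype folds on that scale, after and then before culture, were 0.992 and 1.04 for Nr2f2 and 0.879 and 1.09 for Sox7. For both genes the intervals per 1000 pan-endothelial counts overlapped between genotypes in each culture state.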

How the results depend on the processing

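The test of culture is already paired, since its genotype term is the sort that the libraries before and after culture share. No paired analysis was possible for genotype because each genotype has 1 library per culture state and the labels give no replicate numbers. Of 8 factors, 4 lay beyond 2-fold with culture in each genotype; on the endothelial scale 2 did in each, Tbx1 and, as a new lower call, Sox17, while the calls of Nr2f2 (1.11 in mutant and 1.17 in wild type cells), Sox18 (0.920 and 1.07) and Hhex (1.08 and 0.992) were lost. Without Eng in that list (added after seeing the data) 1 did in each genotype. In wild type cells 2 did under total counts and 7 at 1.5-fold. With Eng left out, Nr2f2 stood at 1.30 in mutant and 1.40 in wild type cells. Sox18 then stood at 1.07 and 1.27 and Hhex at 1.26 and 1.18. Of 17154 genes in wild type cells, 2390 lay beyond 2-fold under TMM, 9685 on the endothelial scale and 7772 on it without Eng. Under total counts 3499 did, and 5040 passed at 1.5-fold. Of 18807 genes in mutant cells, 1656 lay beyond 2-fold under TMM, 10242 on the endothelial scale and 7900 on it without Eng. The ratio of genotype folds was clear of 1 for 4 factors, and for 1 under total counts, the endothelial scale or that scale without Eng. The share over all genes was taken under TMM only, at 29.4% of 12272. The culture test called 7 factors, and 4 on the endothelial scale, beside 7745 of 18378 and 17791 of 19665 genes.

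Signs turned on the endothelial scale for the culture folds of Nr2f1 (0.787 in mutant and 0.843 in wild type cells), Sox7 (0.488 and 0.603), Maf (0.540 and 0.521), Sox17 in wild type cells (0.323), Sox18 in mutant cells (0.920) and Hhex in wild type cells (0.992), and for the fitted log2 folds of Nr2f1 (-0.30), Sox7 (-0.89), Sox17 (-1.58), Sox18 (-0.022) and Maf (-0.91). Without Eng in the list, Sox18 in mutant cells (1.07) and Hhex (1.18) and Nr2f1 (1.003) in wild type cells did not turn. Nr2f1 in mutant cells (0.916), Sox7 (0.568 in mutant and 0.717 in wild type cells) and Maf (0.628 and 0.620) still did. So did Sox17 in wild type cells (0.384). The fitted log2 fold of Sox17 stood at -0.50 under total counts and -0.039 to 0.10 with a library left out. For genotype, where nothing was called, Nr2f2 stood at -0.0188 with RLE factors, -0.0048 with total counts and -0.0188 with DESeq2, and Tbx1 at -0.0015, -0.0014 and -0.071. With 3 libraries the fit has no residual freedom, so every value with a library left out is the fold within 1 genotype or 1 culture state again and no check of stability. The genotype log2 folds then ran from -0.31 to 0.22 (Sox7), -0.17 to 0.0065 (Maf), -0.076 to 0.028 (Hhex), -0.056 to 0.27 (Nr2f1), -0.13 to 0.16 (Nr2f2), -0.11 to 0.33 (Sox18) and -0.46 to 0.23 (Tbx1). Apart from the scalings, the cause was not tested.

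Over all genes the culture test called 7745, and 17791 on the endothelial scale and 4028 with DESeq2 (79.3% higher); the genotype test called 6, and 12 under total counts, 13 on the endothelial scale and 1 with DESeq2. Depth limits Nr2f1, Sox17 and Tbx1 most, with 31 to 103 counts after culture.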
